A study of Mus musculus with 4 samples.

Results

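Cytochrome P450 enzymes of families 1 to 3 are described here across 4 liver RNA libraries. Members were all protein-coding genes of the deposited count table whose symbol consists of Cyp, a family number from 1 to 3, a subfamily letter and a gene number, and 58 of 35275 listed genes met this rule. Family 1 had 3 members, family 2 had 48 and family 3 had 7. The rule leaves out genes with a further letter, such as Cyp3a41a and Cyp3a41b. All mice were females of the congenic strain R1.P1-Apoa2c, 26 weeks old, that carry the amyloidogenic Apoa2c allele in the controls as well as in the treated groups. The study's methods place this allele on a SAMR1 background, and the sample labels name AKR/J. VS mice were given vehicle and stayed sedentary, and VI mice were given vehicle and ran high-intensity interval training (IT) for 16 weeks. FS mice had been injected intravenously with AApoAII amyloid fibrils and stayed sedentary, and FI mice had both the fibrils and IT. Tissue of 4 mice was combined in each group, so 16 mice yielded 4 libraries with 1 library per group, and no pairwise difference below has a replicate error.

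P450 enzymes of these families sit in the endoplasmic reticulum of hepatocytes, where they hydroxylate drugs, pollutants, steroids, bile acids and fatty acids with electrons from P450 oxidoreductase (Por). Several of their genes are switched on by receptors that sense foreign compounds. The aryl hydrocarbon receptor (Ahr) acts on family 1, the constitutive androstane receptor (CAR, gene Nr1i3) on Cyp2b10 and part of Cyp2c, and the pregnane X receptor (PXR, gene Nr1i2) on Cyp3a. In mice many of them also differ between the sexes under growth hormone, and most are made around the central vein of the lobule, with Cyp2f2 as a periportal exception.

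The libraries held between 23442935 and 28814802 counted reads, and a count of 0 allows up to 3 counts, or between 0.102 and 0.127 CPM (counts scaled to a library of 1000000). All 7 hepatocyte markers were expressed, with sums between 148600 and 168800 CPM. VS stood apart by skeletal muscle RNA, with 79.95 CPM summed over 13 marker genes against 10.39, 1.016 and 0.8268 in VI, FS and FI, and 1 of these markers (Tnnc2) had no count in any library. The sum over 9 Kupffer cell markers was 318.4, 383.9, 491.7 and 484.6 CPM in VS, VI, FS and FI, and that over 8 neutrophil markers 2.583, 3.161, 17.44 and 13.15 CPM. Summed levels of the other lists lay between 1.847 and 3.726 CPM for 8 lymphocyte genes, 252.8 and 360.8 for 7 erythroid genes (1 of them at 0 everywhere), 300.8 and 386.2 for 8 stellate cell genes, 186.1 and 219.8 for 7 sinusoidal endothelial genes, 12.57 and 20.19 for 6 cholangiocyte genes, 12.19 and 22.78 for 6 pancreas genes (4 of them at 0 everywhere), 8.468 and 10.91 for 5 adipose genes, 36.11 and 78.38 for 5 intestine genes (3 at 0 everywhere) and 26.07 and 32.62 for 6 cell cycle genes. The part of these cells in the P450 values was not tested, and VI versus FI and FS versus FI are comparisons that do not involve the VS library.

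Of the 58 members, 40 reached 1 CPM in at least 1 library and are described below. The other 18 had at most 15 counts in any library, and 7 of these (Cyp2b19, Cyp2b23, Cyp2c66, Cyp2j7, Cyp2j12, Cyp2j13 and Cyp2w1) had none. At this depth the counting intervals of nearly all of their log2 ratios included 0, and the exception was Cyp2j8 in VI versus VS, with 15 counts against 2 and a log2 ratio of 2.59 (0.76 to 6.03). They include Cyp1a1 and Cyp1b1, the classical inducible Ahr targets, with 11, 7, 9 and 9 counts of Cyp1a1 in VS, VI, FS and FI. The members together took 2.97% of all counts (VS), 2.88% (VI), 2.25% (FS) and 2.4% (FI).

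Levels are compared between genes in FPKM, which divides by gene length. Cyp2e1, which oxidizes ethanol and acetaminophen, was the most abundant member in every library, followed by Cyp3a11, the main PXR-inducible drug-metabolizing enzyme of mouse liver, and by Cyp2a4, a steroid 15α-hydroxylase. Cyp2e1 alone made up 39.8%, 35.8%, 29.4% and 38.1% of the summed FPKM of all members in VS, VI, FS and FI, and Cyp3a11 11.9%, 17.8%, 18.1% and 16.7%. The sum itself was 15474 FPKM (VS), 14780 (VI), 11473 (FS) and 12333 (FI), so both fibril libraries lay below both vehicle libraries. On the log2 scale the sum differed with fibrils by −0.43 in sedentary and −0.26 in trained mice, and with IT by −0.07 in vehicle and 0.10 in fibril livers. Without Cyp2e1 these differences were −0.20, −0.31, 0.03 and −0.09 in the same order, so the sign of both IT differences turned with this 1 gene and that of both fibril differences did not. In bulk tissue, a smaller number of cells of a type and less RNA per cell cannot be told apart.

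**Figure D1:**
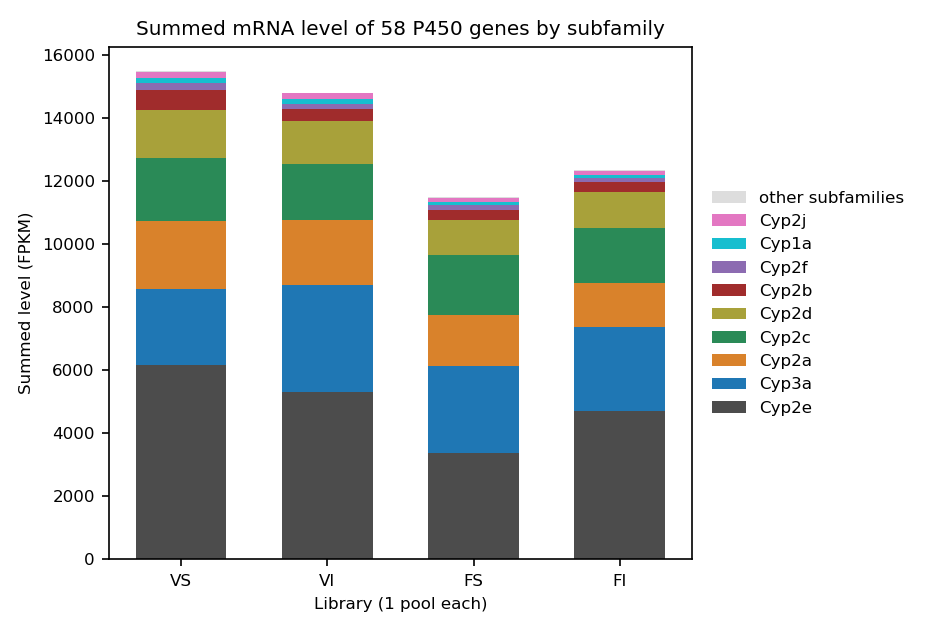
Summed mRNA level (FPKM, vertical axis) of the 58 members in each of the 4 pooled libraries, stacked by subfamily. The total was 15474 FPKM in VS and 11473 FPKM in FS, and the Cyp2e segment was the largest in every library.

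By subfamily, Cyp2e had its lowest share in FS, and Cyp3a had its lowest in VS. The 7 Cyp3a genes summed to 2406 FPKM (VS), 3408 (VI), 2748 (FS) and 2676 (FI), 15.6% of the members' total in VS and between 21.7% and 24% in the other libraries. The Cyp2b sum was 624 FPKM in VS against 380.5 in VI, 321 in FS and 306 in FI. Cyp2a summed to 2157, 2048, 1633 and 1389 FPKM, and Cyp2d to 1539, 1370, 1108 and 1168 FPKM in VS, VI, FS and FI. The Cyp2c sum differed least of these, with 1994, 1783, 1904 and 1733 FPKM. In the plot of single levels, the 4 libraries of most members lie close together. The ratio of the highest to the lowest library was 1.05 for Cyp2c39 and 1.12 for Cyp2c68, but 10.0 for Cyp2b10, 3.66 for Cyp2a22 and 3.39 for Cyp2b13.

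**Figure D2:**
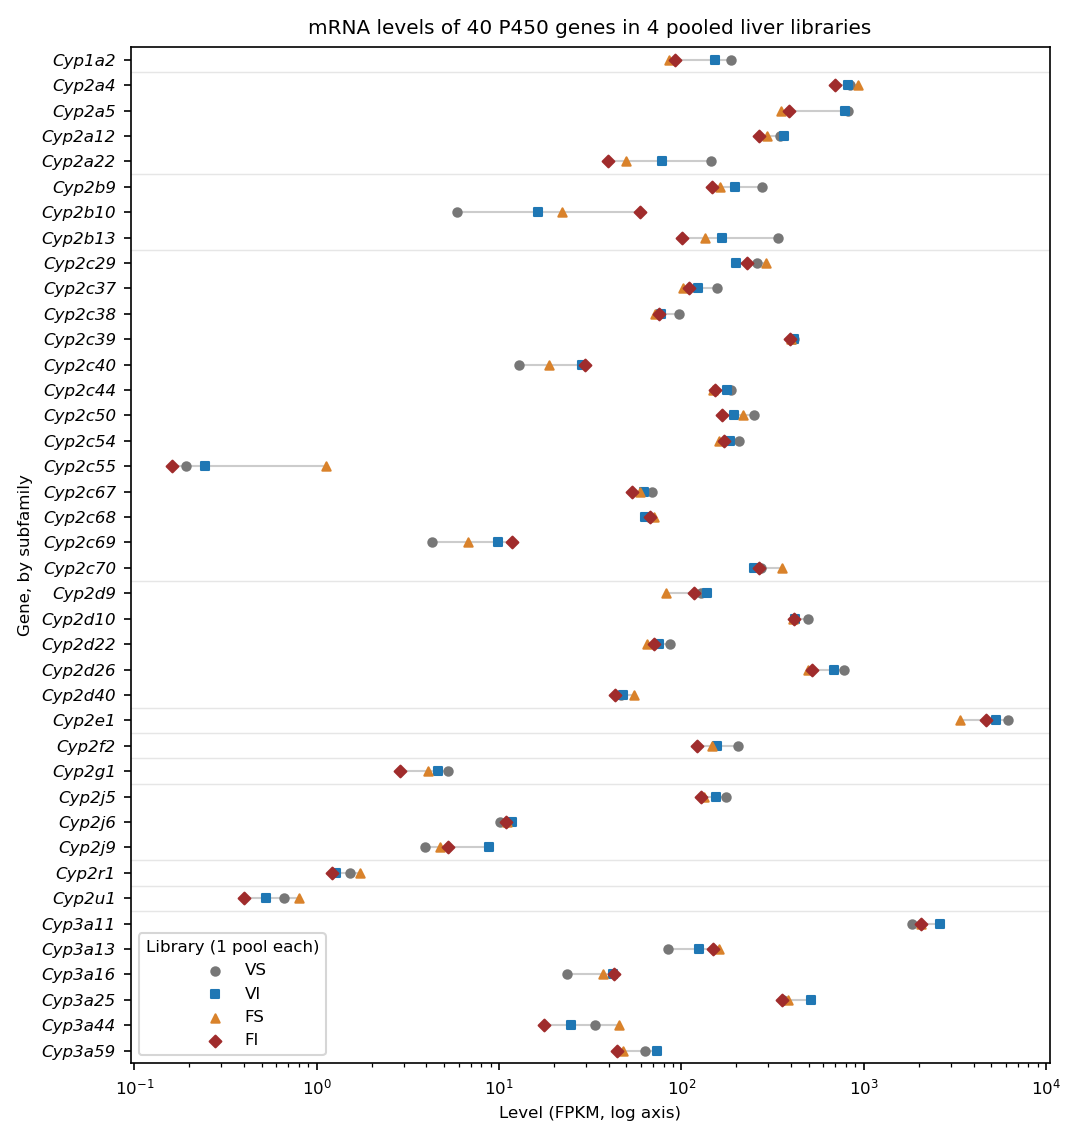
Level (FPKM, horizontal log axis) of the 40 members with at least 1 CPM in 1 or more libraries. Each symbol is 1 pooled library, grey lines span the lowest to the highest, and thin rules separate subfamilies. The span is widest for Cyp2b10, from 5.9 FPKM in VS to 59.3 FPKM in FI, and for the scarce Cyp2c55.

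Pairs of libraries were compared by the log2 ratio of CPM, scaled by the TMM method, with a 95% interval that covers counting error only. Since no test across mice is possible for such a pair, genes were counted when they differed by more than 2-fold, among 12180 genes with at least 1 CPM in 1 or more libraries. Between VI and VS, 4 of 40 members were more than 2-fold higher (Cyp2b10, Cyp2c69, Cyp2c40 and Cyp2j9) and none was lower, where 1.54% of all genes were higher and 1.9% lower. Between FI and FS, Cyp2b10 was higher and Cyp2c55 and Cyp3a44 were lower, against 1.75% and 2.53% of all genes. Between FS and VS, Cyp2c55 and Cyp2b10 were higher and Cyp2a22, Cyp2b13, Cyp2a5 and Cyp1a2 lower, against 3.6% and 2.2% of all genes. Between FI and VI, only Cyp2b10 passed the limit, where 2.59% of all genes were higher and 1.95% lower. Cyp2b13 in VI versus VS and Cyp2a5 in FI versus VI lay just within the limit, with log2 ratios of −0.996 and −0.988, and passed it under scaling to total counts. Contrasts of VI and of FS with VS share the VS library, and contrasts of FI with FS and with VI share the FI library. The contrasts for IT share no library with each other, nor do those for fibrils.

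The median log2 ratio of the members was −0.23 in FS versus VS and −0.19 in FI versus VI, where the medians of all genes tested were 0.0189 and 0.0101. Among the 40 members, 22 were below VS in FS (55%, against 48% of all genes) and 31 were below VI in FI (77.5%, against 48.7% of all genes), and 21 were lower in both (52.5%, against 31.5%). With IT the median was −0.12 in VI versus VS, where 25 members were lower (62.5%, against 49.3% of all genes). It was 0.0057 in FI versus FS, where 20 were lower (50%, against 49.8%), and this second sign turned to −0.0653 when libraries were scaled to total counts. In both IT contrasts 9 members were higher (22.5%, against 30.7% of all genes) and 14 lower (35%, against 29.8%), and 17 had opposite signs (42.5%, against 39.5%).

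**Figure D3:**
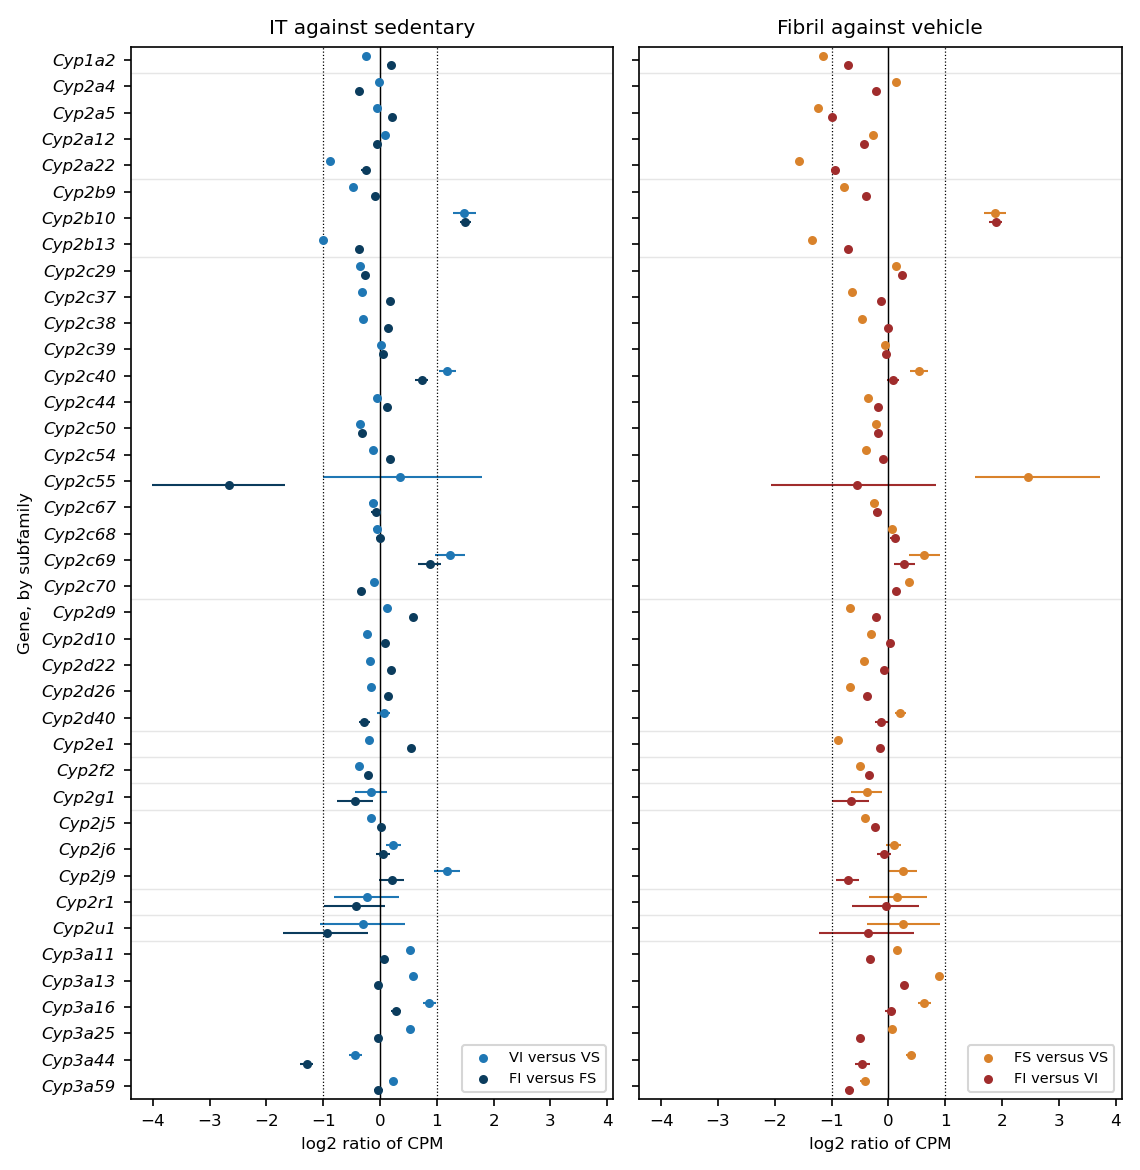
Log2 ratios of CPM for 40 members in the IT contrasts (left) and the fibril contrasts (right), with lines for 95% counting intervals and dotted lines at 2-fold. Cyp2b10 is the 1 member beyond 2-fold in all 4 contrasts, and most points of the FI versus VI contrast lie left of 0.

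A test across all genes was possible in a model with fibril injection and IT as additive terms, whose 1 residual degree of freedom is their interaction. It was fitted by the quasi-likelihood method of edgeR to 11760 genes, 39 of them members, and p-values were adjusted by Benjamini-Hochberg over all fitted genes. The standard error of a gene in this model also draws on the spread of all fitted genes, so it is not an error of that gene alone. It is larger where the IT difference is unlike between fibril and vehicle livers. For the IT term it was 0.20 for Cyp3a44, whose IT ratios differed by −0.86, and 0.11 for Cyp2b10, whose ratios differed by 0.01. With IT, Cyp2b10, Cyp2c40 and Cyp2c69 rose and no member fell, where 0.765% of all genes rose and 0.714% fell. An unadjusted p below 0.05 was found for 12 of the 39 members, against 14.7% of all fitted genes, and DESeq2 called 2 members lower (Cyp2b13 and Cyp3a44) and limma-voom 1 (Cyp3a44). With fibrils, Cyp2b10 rose and Cyp1a2, Cyp2a5, Cyp2a22, Cyp2b13 and Cyp3a59 fell, where 2.81% of all genes rose and 2.17% fell, and 17 of the 39 members had an unadjusted p below 0.05, against 21.4% of all fitted genes.

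**Figure D4:**
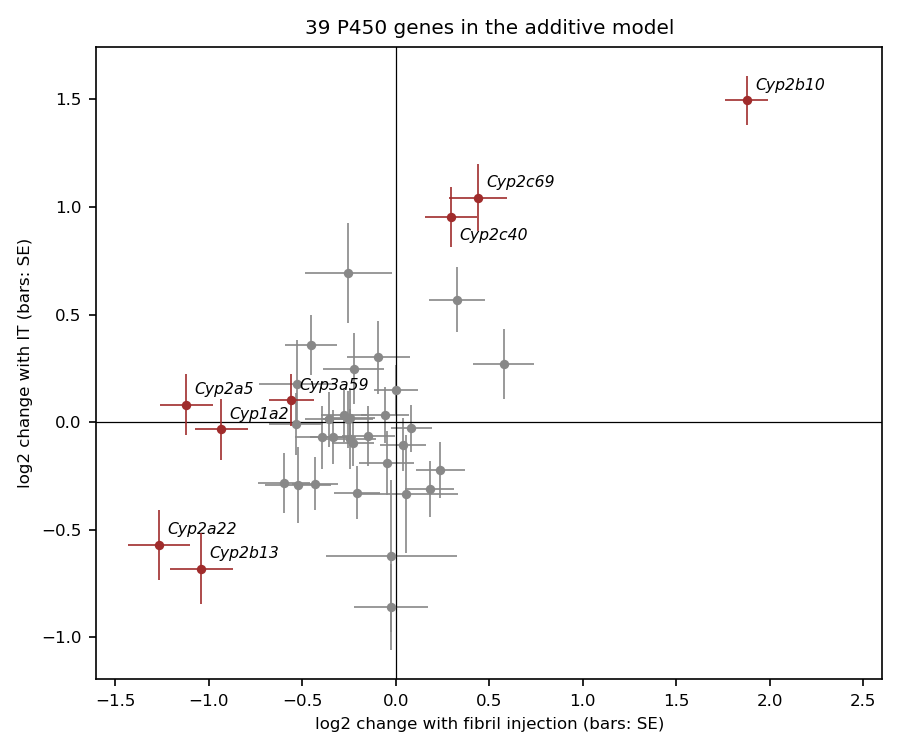
Log2 change with fibril injection (horizontal axis) and with IT (vertical axis) of 39 members in the additive model, with bars for standard errors. Named red points have an adjusted p below 0.05 for at least 1 term. Cyp2b10 sits alone at 1.88 and 1.495, and Cyp2a22 and Cyp2b13 lie at the lower left.

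Within Cyp2b, the phenobarbital-inducible gene Cyp2b10 rose with IT and with fibrils, while the female-predominant gene Cyp2b13 fell with fibrils. Cyp2b10 (ENSMUSG00000030483, chromosome 7, 25897620 to 25926624 in mm10, plus strand) is the textbook target of CAR. Its counts were 265 (VS), 767 (VI), 1216 (FS) and 2816 (FI), or 11.2, 31.5, 41.2 and 116 CPM. VS was the lowest library and FI the highest, each trained library lay above its sedentary partner, and each fibril library lay above its vehicle partner. With IT, the log2 ratio was 1.49 (1.28 to 1.70) in vehicle livers and 1.498 (1.40 to 1.60) in fibril livers, so IT went with 2.80-fold and 2.83-fold more transcript. With fibrils it was 1.87 (1.68 to 2.07) in sedentary and 1.89 (1.77 to 2.003) in trained mice. The change with IT was 1.495 (SE 0.11, adjusted p = 0.0012, quasi-likelihood test of edgeR) and that with fibrils 1.88 (SE 0.12, adjusted p = 0.00037). The IT ratios in fibril and in vehicle livers differed by 0.01 on the log2 scale (−0.22 to 0.24, counting error). On the linear scale, both single differences added to VS would give 61.5 CPM, while FI had 116 CPM. Per length, Cyp2b10 was still below both other expressed Cyp2b genes in every library, with 59.3 FPKM in FI beside 147 for Cyp2b9 and 100.2 for Cyp2b13.

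Cyp2b9 and Cyp2b13 are female-predominant liver genes in the same cluster. Cyp2b13 (ENSMUSG00000040583, chromosome 7, 26061495 to 26096196, plus strand) had 632 CPM (VS), 317 (VI), 248 (FS) and 193 (FI). Cyp2b9 (ENSMUSG00000040660, chromosome 7, 26173411 to 26210661, plus strand) had 518, 371, 299.8 and 282 CPM in the same order. Both genes ran from VS as the highest library to FI as the lowest. Cyp2b13 fell with fibrils by 1.04 on the log2 scale (SE 0.17, adjusted p = 0.015, quasi-likelihood test of edgeR), with log2 ratios of −1.35 (−1.39 to −1.31) in sedentary and −0.72 (−0.77 to −0.67) in trained mice. For Cyp2b9 the fibril change was −0.60 (SE 0.14, adjusted p = 0.05, just outside the threshold), and it passed in DESeq2 and in limma-voom. The IT changes of −0.68 (SE 0.17, adjusted p = 0.11) for Cyp2b13 and −0.28 (SE 0.14, adjusted p = 0.40) for Cyp2b9 did not pass.

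The 250 bases before the transcription start are shown for these 3 neighbours because Cyp2b9 and Cyp2b13 were lower than in VS in the same 3 libraries in which Cyp2b10 was higher. Sequences are RefSeq promoters on GRCm38.p6, plus strand, 5′ to 3′. Capitals mark matches on either strand to AGGTCA, the short element that nuclear receptors bind, or to GCGTG, the core bound by Ahr, and no matches overlap.
Cyp2b10, chr7:25897408-25897657: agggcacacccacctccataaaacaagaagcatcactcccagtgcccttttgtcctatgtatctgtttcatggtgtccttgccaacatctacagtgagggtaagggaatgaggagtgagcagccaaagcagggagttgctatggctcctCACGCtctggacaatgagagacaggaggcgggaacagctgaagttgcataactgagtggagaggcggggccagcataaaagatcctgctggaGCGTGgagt
Cyp2b9, chr7:26173159-26173408: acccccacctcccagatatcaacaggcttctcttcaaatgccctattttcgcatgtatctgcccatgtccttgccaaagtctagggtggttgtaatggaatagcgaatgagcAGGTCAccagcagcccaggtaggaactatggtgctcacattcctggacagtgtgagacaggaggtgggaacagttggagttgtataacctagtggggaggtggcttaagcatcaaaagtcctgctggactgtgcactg
Cyp2b13, chr7:26061245-26061494: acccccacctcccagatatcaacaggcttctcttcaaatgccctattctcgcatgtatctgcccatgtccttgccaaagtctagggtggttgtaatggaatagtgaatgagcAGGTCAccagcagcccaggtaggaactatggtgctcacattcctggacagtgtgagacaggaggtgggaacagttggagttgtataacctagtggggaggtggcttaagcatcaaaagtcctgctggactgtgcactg
The windows of Cyp2b9 and Cyp2b13 were 99.2% identical with 2 mismatched bases, and those of Cyp2b9 and Cyp2b10 were 74.6% identical over the aligned bases. AGGTCA begins at position −138 from the start site in Cyp2b9 and in Cyp2b13, and the Cyp2b10 window has no match to it and 2 matches to GCGTG, the capitals past its middle and at its end. RefSeq puts the Cyp2b10 start 38 bases inside the gene as listed with the counts, so the last bases of that window belong to the listed gene. Across RefSeq promoters of this length, 13.8% of 27025 hold AGGTCA and 28.2% hold GCGTG, and among 50 members with a promoter entry the shares were 28% and 16%. TTCNNNGAA, the element of STAT factors, was in 7.18% of all promoters and 4% of the members', and TTATGTAA, the element of the Dbp family, in 0.862% and 0%. A match is a description of letters in this window and not a site. Bases farther from the start were not searched, so a missing match says nothing about elements outside the window.

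**Figure D5:**
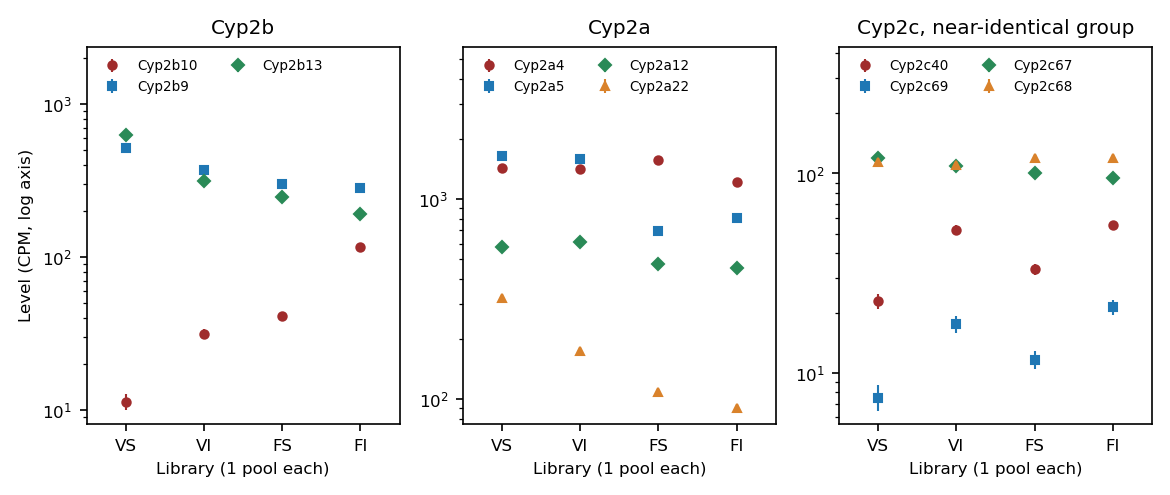
Levels (CPM, log axis) of Cyp2b genes (left), Cyp2a genes (middle) and 4 near-identical Cyp2c genes (right) in the 4 pooled libraries, with bars for exact 95% Poisson intervals, mostly hidden by the symbols. Cyp2b10 increases from 11.2 CPM in VS to 116 CPM in FI, the library in which both neighbours are lowest, and Cyp2a5 is lower in both fibril libraries, where Cyp2a4 differs less.

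In Cyp2a, fibril livers differed from vehicle livers in Cyp2a5 but little in its nearest relative Cyp2a4. Cyp2a5 (ENSMUSG00000005547, chromosome 7, 26835305 to 26843548, plus strand) is the coumarin 7-hydroxylase of mouse liver. It had 1643 CPM (VS), 1592 (VI), 696 (FS) and 802 (FI), so both fibril libraries were near the same low level and both vehicle libraries near the same high one. Its log2 ratio was −1.24 (−1.26 to −1.22) in sedentary and −0.99 (−1.01 to −0.96) in trained mice, and its change with fibrils was −1.12 (SE 0.14, adjusted p = 0.0062, quasi-likelihood test of edgeR). IT had ratios of −0.05 and 0.21, and its change of 0.08 (SE 0.14, adjusted p = 0.85) did not pass. Cyp2a4 (ENSMUSG00000074254, chromosome 7, 26307190 to 26315088, plus strand) is female-predominant. Its levels were 1432, 1416, 1567 and 1219.7 CPM in VS, VI, FS and FI, with fibril ratios of 0.13 and −0.22 of opposite sign and a fibril change of −0.05 (SE 0.15, adjusted p = 0.89). Coding sequences of this pair were 98.5% identical, the closest of all pairs within the subfamilies, and 14.4% of the 100-base windows of the Cyp2a5 transcript and 11.2% of those of Cyp2a4 occur in another gene, so part of their reads cannot be assigned to 1 of them.

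Their promoters are shown because sequences that are alike went with levels that were not. Both are sequences of the reference genome, and those of the strain used here were not examined. In each line, capitals mark the bases that the pair does not share in an alignment of the 250 bases before each RefSeq start (GRCm38.p6, plus strand, 5′ to 3′).
Cyp2a4, chr7:26306942-26307191: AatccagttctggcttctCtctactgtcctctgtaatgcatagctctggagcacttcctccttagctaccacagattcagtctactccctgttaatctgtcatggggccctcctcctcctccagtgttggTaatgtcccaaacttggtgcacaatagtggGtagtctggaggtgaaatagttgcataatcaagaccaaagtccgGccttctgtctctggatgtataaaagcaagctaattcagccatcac
Cyp2a5, chr7:26835089-26835338: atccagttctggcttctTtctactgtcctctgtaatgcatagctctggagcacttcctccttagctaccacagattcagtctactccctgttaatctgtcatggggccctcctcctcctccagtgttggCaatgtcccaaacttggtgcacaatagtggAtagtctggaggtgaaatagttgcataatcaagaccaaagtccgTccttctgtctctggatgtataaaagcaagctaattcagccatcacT
Identity over the aligned bases was 98.4%, with 4 mismatches and 2 gaps. The gaps lie at the window ends, where the first base of Cyp2a4 and the last base of Cyp2a5 have no partner. None of the 4 motifs named above occurs in either window. The Cyp2a5 start of RefSeq lies 34 bases inside the gene as listed with the counts.

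Cyp2a22 (ENSMUSG00000091867, chromosome 7, 26931631 to 26939386, minus strand) had 322 CPM (VS), 175 (VI), 108 (FS) and 90.9 (FI). Its largest step lay between VS and the other libraries. With fibrils it fell by 1.26 on the log2 scale (SE 0.16, adjusted p = 0.008, quasi-likelihood test of edgeR), with ratios of −1.57 (−1.63 to −1.51) and −0.94 (−1.02 to −0.87), lower in both fibril libraries. With IT the ratios were −0.88 and −0.25, and the change of −0.57 (SE 0.16, adjusted p = 0.17) did not pass. Cyp2a12, 97% identical to Cyp2a22 in its coding sequence, had 574, 609.8, 474 and 455 CPM, and its fibril change was −0.36 (SE 0.13, adjusted p = 0.16).

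Cyp2c was the largest subfamily, with 15 members on chromosome 19, 13 of them expressed. Cyp2c40 and Cyp2c69, both described as female-predominant in mouse liver, rose with IT. Cyp2c40 (ENSMUSG00000025004, chromosome 19, 39767071 to 39812814, minus strand) had 541, 1268, 980 and 1332 counts in VS, VI, FS and FI, or 22.9, 52, 33.2 and 55.1 CPM. Each trained library was above both sedentary ones, and the step was larger in vehicle livers, with log2 ratios of 1.18 (1.04 to 1.33) and 0.73 (0.61 to 0.85). Its IT change was 0.95 (SE 0.14, adjusted p = 0.019, quasi-likelihood test of edgeR). Cyp2c69 (ENSMUSG00000092008, chromosome 19, 39842660 to 39886769, minus strand) had 177, 428, 344 and 516 counts, log2 ratios of 1.23 (0.97 to 1.49) and 0.87 (0.67 to 1.07) and an IT change of 1.04 (SE 0.16, adjusted p = 0.023). Their fibril changes of 0.30 (adjusted p = 0.26) and 0.44 (adjusted p = 0.15) did not pass. Coding sequences of Cyp2c40, Cyp2c67, Cyp2c68 and Cyp2c69 were between 96.5% and 98.1% identical in pairs. Of the 100-base windows of their transcripts, 44.1% in Cyp2c40, 36.3% in Cyp2c69, 23.7% in Cyp2c67 and 19.8% in Cyp2c68 occur in another gene, so the split of reads between these genes is uncertain. Yet Cyp2c67 had 119, 109, 100.1 and 95.2 CPM and Cyp2c68 114, 110.2, 119.7 and 119 CPM, with IT changes of −0.10 (adjusted p = 0.76) and −0.03 (adjusted p = 0.94).

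Among the other Cyp2c genes, the scarce Cyp2c55 differed most and the abundant ones differed less than Cyp2c40 and Cyp2c69. Cyp2c29, a CAR-inducible enzyme, had 725, 567, 800.1 and 665 CPM in VS, VI, FS and FI and was lower with IT and higher with fibrils in both pairs, with an IT change of −0.31 (adjusted p = 0.32). Cyp2c37, Cyp2c38, Cyp2c50 and Cyp2c54 had their highest levels in VS and fibril changes between −0.39 and −0.21, none of which passed. Cyp2c44, an epoxygenase of arachidonic acid, had 364, 351, 284 and 308 CPM and a fibril change of −0.28 (SE 0.12, adjusted p = 0.25). Cyp2c39, which oxidizes retinoic acid, lay between 711 and 754 CPM. Cyp2c70, which makes the muricholic acids of rodent bile, had 464, 429.9, 595 and 471 CPM, highest in FS. Cyp2c55 rested on 9, 12, 65 and 8 counts. FS was the 1 library above the rest, with ratios of 2.46 (1.52 to 3.72) against VS and −2.66 (−4.01 to −1.67) for FI against it, and the gene did not reach 1 CPM in enough libraries for the additive model.

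Cyp1a2 (ENSMUSG00000032310, chromosome 9, 57676937 to 57683655, minus strand), the pericentral enzyme that demethylates caffeine, was the 1 expressed gene of family 1. It had 349.6 CPM (VS), 293 (VI), 158 (FS) and 179.9 (FI). Vehicle and fibril libraries did not overlap, and the log2 ratios were −1.15 (−1.20 to −1.10) and −0.70 (−0.76 to −0.65). With fibrils Cyp1a2 fell by 0.93 (SE 0.14, adjusted p = 0.011, quasi-likelihood test of edgeR). The IT ratios of −0.26 and 0.19 had opposite signs and the IT change was −0.03 (SE 0.14, adjusted p = 0.95).

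In Cyp3a, most genes had a higher level with IT in vehicle livers, and in fibril livers the ratios with IT ran from −1.29 for Cyp3a44 to 0.28 for Cyp3a16. Of 6 expressed genes, 5 were higher in VI than in VS, with a median log2 ratio of 0.53, and 2 were higher in FI than in FS, with a median of −0.04. Among all 12180 genes tested, 6178 and 6119 were higher in these contrasts. Cyp3a11 (ENSMUSG00000056035, chromosome 5, 145854426 to 145879964, minus strand) had 4282 CPM (VS), 6198 (VI), 4741 (FS) and 4963 (FI). VI was the 1 library that stood out, with IT ratios of 0.53 (0.52 to 0.55) in vehicle and 0.07 (0.05 to 0.08) in fibril livers. Cyp3a25 had 717, 1039, 751 and 731 CPM, the same order of VI above the rest, with IT ratios of 0.54 and −0.04. Cyp3a13 had 249, 372, 462 and 449.9 CPM, so that VS was lowest, and Cyp3a16 had 40.6, 73.9, 62.7 and 76.1 CPM, again lowest in VS, with IT ratios of 0.86 (0.75 to 0.98) and 0.28 (0.18 to 0.37). None of these 4 passed for IT in the additive model, with changes of 0.30 (adjusted p = 0.47) for Cyp3a11, 0.25 (0.54) for Cyp3a25, 0.27 (0.50) for Cyp3a13 and 0.57 (0.14) for Cyp3a16. The difference between both IT ratios of Cyp3a11 was −0.47 (−0.48 to −0.45, counting error). With 1 library per group that difference has no test across mice. Cyp3a13 overlaps the pseudogene Gm15502, which had between 68 and 205 counts.

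Cyp3a44 (ENSMUSG00000054417, chromosome 5, 145773983 to 145805874), a female-predominant gene, had 65.8, 48.8, 87 and 35.5 CPM in VS, VI, FS and FI. Both trained libraries were below both sedentary ones, with ratios of −0.43 (−0.54 to −0.32) and −1.29 (−1.41 to −1.18), and the IT change of −0.86 (SE 0.20, adjusted p = 0.12) did not pass in edgeR but did in DESeq2 and limma-voom. Cyp3a59 (ENSMUSG00000061292, chromosome 5, 146079258 to 146113285) had 125, 147, 93.4 and 91.3 CPM, with fibril libraries below vehicle libraries, and fell with fibrils by 0.56 (SE 0.12, adjusted p = 0.037, quasi-likelihood test of edgeR). This call was lost when genes had to reach 5 CPM in at least 2 libraries. Its closest relative is Cyp3a25 at 97.5% coding identity, and 5.61% of its transcript windows occur there.

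Cyp2e1 (ENSMUSG00000025479, chromosome 7, 140763739 to 140774975, plus strand) had 11182 CPM (VS), 9742 (VI), 6011 (FS) and 8798 (FI). FS was the lowest library, and FI lay between FS and VI. IT went with a ratio of −0.20 (−0.21 to −0.19) in vehicle and 0.55 (0.54 to 0.56) in fibril livers, and fibrils with −0.90 (−0.90 to −0.89) in sedentary and −0.15 (−0.16 to −0.14) in trained mice. In the additive model the fibril change was −0.53 (SE 0.21, adjusted p = 0.19) and the IT change 0.18 (SE 0.20, adjusted p = 0.76), and neither passed.

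The 5 expressed Cyp2d genes lie on chromosome 15. Cyp2d26 had 1278, 1143, 798 and 880.0 CPM in VS, VI, FS and FI, lower in both fibril libraries, and a fibril change of −0.53 (SE 0.14, adjusted p = 0.074). Cyp2d9, the testosterone 16α-hydroxylase that predominates in males, had 211, 231, 132 and 198 CPM, lowest in FS. Cyp2d10 had 808, 692, 656 and 701 CPM and Cyp2d22 237, 211, 176 and 201 CPM, both highest in VS, whereas Cyp2d40 lay between 51.3 and 62.1 CPM. With fibrils, 4 of the 5 were lower in sedentary mice and 4 in trained mice, where 48% and 48.7% of all genes were lower. None passed for either term in edgeR, while DESeq2 called Cyp2d26 lower with fibrils.

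Cyp2f2, which activates naphthalene, had 381, 295, 268 and 232 CPM, again with VS highest and FI lowest, and a fibril change of −0.43 (SE 0.12, adjusted p = 0.086). It overlaps the antisense gene Gm15883, which had between 45 and 66 counts, and the strand setting of the counting is not given. Cyp2g1 had 9.61, 8.62, 7.38 and 5.46 CPM in the same order of libraries. Cyp2j5, an epoxygenase of arachidonic acid, had 407, 365, 305 and 309 CPM, and its fibril change of −0.34 (SE 0.13, adjusted p = 0.17) did not pass. Cyp2j9 stood apart in VI, with 9.91, 22.4, 11.8 and 13.6 CPM and IT ratios of 1.18 (0.95 to 1.40) and 0.21 (−0.01 to 0.43), and its IT change was 0.69 (SE 0.23, adjusted p = 0.25). Cyp2j6 lay between 36.5 and 42.9 CPM. Cyp2r1, a vitamin D 25-hydroxylase, and Cyp2u1, a fatty acid hydroxylase, were near the limit of the count filter with at most 2.74 and 1.83 CPM, and differences of theirs were mostly not detectable at this depth.

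Members were also grouped by role from background knowledge. The 6 listed as CAR-inducible (Cyp2a5, Cyp2b9, Cyp2b10, Cyp2b13, Cyp2c29 and Cyp2c55) summed to 1704.7, 1365.5, 966.9 and 925.1 FPKM in VS, VI, FS and FI. Most of this sum in VS came from Cyp2a5, Cyp2b9 and Cyp2b13 (822, 278 and 340 FPKM). Cyp2b9 and Cyp2b13 are also counted as female-predominant below. Cyp2b10, the textbook CAR target, went the other way, from 5.9 FPKM in VS to 59.3 FPKM in FI. Counted by gene, fibrils went with a higher level of 3 of the 6 in sedentary mice (Cyp2b10, Cyp2c29 and the scarce Cyp2c55). The other 3 were lower there. In trained mice 2 were higher (Cyp2b10 and Cyp2c29) and 4 lower. Of all genes tested, 48% were lower with fibrils in sedentary and 48.7% in trained mice. With fibrils Cyp2b10 was called higher and Cyp2a5 and Cyp2b13 lower, where 2.81% of all genes rose and 2.17% fell. The 3 PXR-inducible members summed to 2286, 3267.6, 2617.6 and 2570.5 FPKM. FPKM is scaled to total counts and CPM by TMM, and the order of FS and FI depended on this. Cyp3a11 had 2072 FPKM in FS and 2065 in FI, but 4741 and 4963 CPM. The 7 female-predominant members summed to 1532, 1289, 1343 and 1042 FPKM. With IT, 3 of them were higher and 4 lower, in vehicle and in fibril livers alike. In edgeR, Cyp2c40 and Cyp2c69 were called higher and none lower with IT, where 0.765% of all genes rose and 0.714% fell. DESeq2 also called Cyp2b13 and Cyp3a44 lower with IT, and limma-voom Cyp3a44. With fibrils, 5 of the 7 were higher and 2 lower in sedentary mice, and 3 were higher and 4 lower in trained mice. Among all genes tested, 48% and 48.7% were lower in these contrasts. Of the 7, 1 (Cyp2b13) was called lower with fibrils in edgeR, where 2.17% of all genes fell. The 8 epoxygenases summed to 1597, 1413, 1434 and 1332 FPKM, and none passed for either term.

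Genes that supply or control P450 enzymes were read from lists of background knowledge and are counted here by the additive model. For all list counts by this model, here and in the next paragraph, the shares of all fitted genes serve as background. With fibrils 2.81% of them rose and 2.17% fell, and with IT 0.765% rose and 0.714% fell. Of 9 genes listed as electron supply or helpers of P450 enzymes, 2 fell with fibrils. They were the epoxide hydrolase Ephx1 (−0.67, SE 0.13, adjusted p = 0.023) and the ferredoxin Fdx1 (−0.52, SE 0.11, adjusted p = 0.035, quasi-likelihood test of edgeR). Por had 929 CPM (VS), 1210.3 (VI), 729 (FS) and 1345 (FI), higher in both trained libraries, with an IT change of 0.63 (SE 0.16, adjusted p = 0.12). Of 11 haem genes, Alad (−0.96, SE 0.12, adjusted p = 0.0061) and Blvrb (−0.67, SE 0.13, adjusted p = 0.022) fell with fibrils. Alas1, which sets the rate of haem synthesis, had 549, 593, 702 and 670.0 CPM and a fibril change of 0.26 (adjusted p = 0.30). Of 24 expressed regulators, Nr1i3 and the hepatocyte factor Foxa2 fell with fibrils, none rose, and 1 fell with IT. Nr1i3, which encodes the receptor that drives Cyp2b10, had 217 CPM (VS), 169 (VI), 99.2 (FS) and 88.8 (FI), a fibril change of −1.04 (SE 0.12, adjusted p = 0.0044), in the direction opposite to Cyp2b10. Nr1i2 lay between 107 and 167 CPM, Ahr between 18.5 and 26.7 CPM and Hnf4a between 728 and 1014 CPM, and none of these 3 passed. The gene that fell with IT was Dbp, a clock-controlled factor that binds P450 promoters, with 102, 22.2, 80.9 and 25.5 CPM and an IT change of −1.93 (SE 0.15, adjusted p = 0.0012). Its part in the IT values of the members was not tested.

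Among targets of the same receptors outside the P450 families, 0 of 3 expressed Ahr targets passed in the additive model. With fibrils it called 3 of 15 CAR and PXR targets lower (Gsta2, Abcb1a and Aldh1a1) and none higher. In FS versus VS, however, 2 of the 15 were more than 2-fold higher and 2 more than 2-fold lower. The higher ones were Gstm3 and Akr1b7, with log2 ratios of 1.96 and 2.11. In FI versus VI these numbers were 0 and 2. Of all genes tested, 3.6% were more than 2-fold higher and 2.2% more than 2-fold lower in FS versus VS. In FI versus VI the shares were 2.59% and 1.95%. Of 10 STAT5B and sex-bias regulators, the growth hormone receptor Ghr fell with fibrils. Of 14 expressed sex-biased genes, Acot3, Acot4 and Sult2a1 fell with fibrils and Sult2a1 fell with IT. Of 11 pericentral genes, Axin2, Tbx3 and Lect2 fell with fibrils and none changed with IT. Of 11 periportal genes, Sds rose with fibrils and Sds and Asl rose with IT. Of 22 expressed P450 genes that the rule leaves out, 3 rose with fibrils (Cyp17a1, Cyp39a1 and Cyp3a41a) and 2 fell (Cyp8b1 and Cyp46a1), and with IT 2 rose (Cyp4a32 and Cyp39a1) and 1 fell (Cyp51). With fibrils, all 14 acute phase genes were higher in sedentary and in trained mice, against 6333 and 6246 of all 12180 genes tested. Their median log2 ratios were 1.46 and 0.81, and 5 of them rose in the additive model. Their part in the lower P450 levels was not tested.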

How the data were processed

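RNA of 4 pooled livers (1 library per group) was sequenced by the authors and deposited as raw read counts per gene and, in a second table, as FPKM. Per the labels, the processing used fastp 0.23.2, STAR 2.5, HTSeq 0.6.1 and mm10. Neither annotation release nor strand setting is given in the sources used here. FPKM equalled the deposited counts divided by gene length and by the library total. Columns of the authors' own comparisons were not used.

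The members, gene lists and tests were chosen with earlier results of these data known. All expressed members (at least 1 CPM in 1 or more libraries) are named. CPM used TMM scaling (edgeR 4.0.16, R 4.3.3), log2 ratios a prior of 0.5 counts, and their intervals are exact conditional binomial (Clopper-Pearson) at 95%. Reads carry no molecular identifiers, so intervals and floors reflect counting alone. Depth was 23442935 to 28814802 counts per library.

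The additive model (fibril injection and training, 3 coefficients, 1 residual degree of freedom) was fitted to genes with at least 1 CPM in 2 or more libraries by edgeR's robust quasi-likelihood test with Benjamini-Hochberg adjustment over 11760 genes and a threshold of 0.05. P-values then rest on 4 pools and not on single mice. DESeq2 1.42.0 and limma-voom 3.58.1 were alternatives, with other scalings, filters, fold limits and exact tests at assumed dispersions. Scripts were tested on simulated data. Transcripts for coding identity and shared windows came from GENCODE M21, where 34 of 58 members had the same position as in the count table. Promoters came from RefSeq (GRCm38.p6), and 50 of 58 members matched by symbol. All sequences are of the reference genome and not of the strain used here.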

Additional observations from a re-analysis of the deposited data

Results flagged for a closer look

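For 4 members the log2 ratios of the same kind of contrast had opposite signs, both with counting intervals off 0, and differed by more than 1.5-fold. Opposite signs of any size were more common, with 17 of 40 members for IT and 11 for fibrils. These are 42.5% and 27.5% of the members, against 39.5% and 33.7% of all genes tested. With 1 pool per group the difference between contrasts was not tested in any of them. The log2 ratio with IT of Cyp2e1 was −0.20 in vehicle and 0.55 in fibril livers, a difference of 0.7485. For Cyp3a13, which oxidizes xenobiotics and steroids, it was 0.58 in vehicle and −0.04 in fibril livers, a difference of −0.6172, and the second of these is close to no change. With fibrils, Cyp2j9 had log2 ratios of 0.25 in sedentary and −0.72 in trained mice, a difference of −0.9690. Cyp3a44 had ratios with fibrils of 0.40 in sedentary and −0.46 in trained mice, a difference of −0.8598.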

How the results depend on the processing

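All 9 calls of the additive model were kept by DESeq2 and limma-voom, but several counts of members and a few signs depended on the processing. The median log2 ratio in FI versus FS turned from 0.0057 to −0.0653 with total counts and to −0.0646 and −0.0652 with FPKM and pseudocounts of 1 and 0.1. Without Cyp2e1, the log2 difference of the summed FPKM with IT turned from −0.0662 to 0.0267 in vehicle and from 0.1042 to −0.0856 in fibril livers. Without a filter on low counts, members beyond 2-fold numbered 8 higher and 2 lower for VI against VS, 4 and 4 for FI against FS, 6 and 7 for FS against VS and 3 and 4 for FI against VI, and the additive model called 5 higher and 3 lower with training and 2 higher and 11 lower with fibrils. An exact test at an assumed biological coefficient of variation of 0.2 called 0 members higher in VI versus VS. It called 0 higher and 1 lower in FI versus FS and 1 lower in FS versus VS. At 0.4 it called 0 in each of these and also 0 higher in FS versus VS and 0 higher in FI versus VI. Scaling to total counts gave 1 lower member for VI against VS and 1 for FI against VI, as did FPKM with a pseudocount of 1 or 0.1. The pseudocount of 1 also left 1 lower in FI versus FS and 1 higher in FS versus VS, the same counts as a filter of 5 CPM, since Cyp2c55 is scarce. A fold limit of 1.5 gave 2 lower for VI against VS, 3 higher for FI against FS, 5 higher and 9 lower in FS versus VS and 7 lower in FI versus VI. With 1 factor alone in the model, 0 members were called higher with training, and 0 higher and 0 lower with fibrils. DESeq2 called 2 members lower with training and limma-voom 1. As TPM, the members summed to 28115, 27229, 21459 and 22915 in VS, VI, FS and FI, and without Cyp2e1 to 9309, 9483, 8102 and 7636 FPKM. Where no cause is given it was not tested. Cyp2b9 was also called lower with fibrils in edgeR without robust estimation, with DESeq2 size factors, without a filter and with bias-adjusted deviances (an alternative chosen after seeing the data), and by DESeq2 and limma-voom. DESeq2 and edgeR without a filter also called Cyp2d26.

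No paired analysis was possible because each group is 1 library with no replicate number, and without any 1 library the model has no residual degree of freedom. All values describe 4 pools, and the spread between mice is unknown.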
